A study of Mus musculus with 38 samples.

Results

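The mRNAs of 10 genes for transcription factors of the oocyte and the early embryo, out of 23125 genes in the deposited table, were followed inside and outside polysomes of mouse oocytes and embryos. They were taken by symbol and not by their values: Obox1, Obox2, Obox3, Obox5 and Obox6 of the oocyte-specific homeobox family, the Krüppel-like factors Klf4, Klf5 and Klf17, the POU factor Pou5f1 and the newborn ovary homeobox gene Nobox. In GV oocytes the mRNAs of Obox1, Obox2 and Obox5 had lower levels in polysomes than outside them, and those of Klf17 and Nobox higher levels. The polysome levels of Obox1 and Obox2 rose between GV and MII oocytes and those of Obox1 and Obox5 between zygotes and zygotes in M-phase. Obox5 in the first step and Obox2 in the second also lay higher, but these changes did not pass the threshold. Each rise that did pass it failed to do so in at least 1 fit that left out 1 of the libraries compared. Between the two-cell stage and its M-phase 5 of the 6 tested genes were called lower in polysomes (limma adjusted p under 0.05 and a log2 change beyond 1), where 28.1% of all genes were, and 1 of these calls, that of Obox1, was kept when each library was centred on its median. That call was lost with 1 added to each FPKM, and the two-cell M polysome levels of Obox1 lay near the lower limit of the values. Obox6 was near the lower limit of the values in oocytes and zygotes and appeared in two-cell embryos.

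Polysomes are mRNAs carrying several ribosomes, and the share of an mRNA found in them is read as a sign of its translation. A fully grown GV oocyte, named for its large nucleus (the germinal vesicle), has stopped transcription and lives on stored mRNA until the embryo's own genome is switched on, in the mouse chiefly at the two-cell stage. Some stored mRNAs are kept out of polysomes until the oocyte matures to metaphase of the second meiotic division (MII) or is fertilised. The OBOX proteins are homeodomain factors encoded by a cluster of related genes on mouse chromosome 7 and have a part in the activation of the embryonic genome. NOBOX is a homeodomain factor that oocytes need for the growth of the follicle. POU5F1 (OCT4), KLF4 and KLF5 are factors of pluripotent cells, and Klf17 is a Krüppel-like factor gene active in the growing oocyte.

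The libraries came from ICR mice, a wild-type outbred strain, and no gene was altered. Females of at least 6 weeks had been stimulated with PMSG 46 h before GV oocytes were taken, and these were isolated with IBMX, which holds them in meiotic prophase. MII oocytes had been matured in vitro for 12 h, zygotes were recovered from the oviducts of mated females, and two-cell embryos were cultured in KSOM. The groups called zygote M and two-cell M had been held in M-phase with 10 µM nocodazole, a drug that depolymerises microtubules, so M-phase and drug cannot be told apart in those embryos, while MII oocytes reach metaphase without it. In each case cycloheximide was used to hold ribosomes on the mRNA, the lysate was spread over a sucrose gradient of 10 fractions, and the lightest 5 were pooled as the non-polysome and the heaviest 5 as the polysome library. There were 3 libraries per stage and fraction, so 36 libraries in 12 groups, with a letter for each gradient (A, B and C, and for zygotes B, C and D). The study's text calls the libraries of a group biological replicates. How many oocytes or embryos went into a library was not given in the sources used here. The values are FPKM, fragments counted per length of transcript and per size of the library, with a smallest value of 0.01 in every library, called the floor here. FPKM gives an mRNA's share of its own library, so polysome and non-polysome levels compare a gene with the other mRNAs of each fraction and not molecules per oocyte, and fewer cells and less RNA per cell cannot be told apart.

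The libraries were uneven. The sum of FPKM ranged from 88982 to 247361 and the number of genes above 0.1 FPKM from 5140 to 10525, and the depth in reads is unknown. The median SD of a gene within a group on the log2 scale ran from 0.23 in zygote polysomes to 1.64 in the two-cell non-polysome fraction, and was 1.34 in two-cell M polysomes and 1.37 in the two-cell M non-polysome fraction. The median log2 FPKM of the tested genes was -4.66 to -3.56 in the two-cell M non-polysome libraries and -2.25 to -0.90 in two-cell M polysomes. In all other libraries it was -1.07 to 0.81, so centring on library medians, used below, moves the two-cell M non-polysome libraries most. All 10 oocyte markers listed (Gdf9, Zp3 and others) were measured, with a summed level of 2155 to 2684 FPKM in GV polysomes, 280.5 to 331 FPKM in two-cell polysomes, 32.6 to 165 FPKM in two-cell M polysomes and 5.71 to 93.2 FPKM in the two-cell M non-polysome fraction. Genes of the embryonic genome activation at the two-cell stage (Tcstv1, Tcstv3, Zscan4 genes and others, 20 measured) summed to 147 to 244 FPKM in two-cell polysomes and 15.4 to 168 FPKM in two-cell M polysomes. Their sum was 177 to 324 FPKM in GV polysomes, 43.1 to 65.0 in MII, 49.1 to 66.0 in zygotes and 105 to 210 in zygote M. In polysomes it thus did not mark two-cell embryos. Tcstv1 and Tcstv3 had the highest geometric means of the list (57.9 and 25.3 FPKM), and the Zscan4 genes at most 0.405 FPKM. Granulosa and cumulus markers (12 of 14 measured) summed to at most 5.28 FPKM in most groups, with up to 24.0 FPKM in the MII non-polysome fraction and 101.7 FPKM in 1 two-cell non-polysome library. Blood markers (4 of 6 measured, nearly all of it Hba-a1) summed to at most 1.33 FPKM up to zygote M, but to 34.3 to 83.7 FPKM in two-cell polysomes, 99.7 to 162 FPKM in the two-cell non-polysome fraction and 0.04 to 52.6 FPKM in two-cell M libraries. Sperm markers (4 of 6 measured) summed to at most 6.33 FPKM. The part of these cell types in the results was not tested. Since the two-cell M libraries stood apart, results are also given without these 6 libraries, an alternative chosen after seeing the data. Calls over all genes rose in that alternative too, from 10.4% to 18% between polysome stages and from 20.4% to 28.4% between non-polysome stages. Between fractions they rose from 5.02% to 9.69%, and for the difference between the fractions' changes from 0.628% to 2.71%. A call gained in it is therefore not read as particular to the genes followed. Genes whose geometric mean reached 0.1 FPKM were tested, and 6 of the 10 genes were (Obox1, Obox2, Obox5, Pou5f1, Klf17 and Nobox) among 7967 genes in all. A call needed a limma adjusted p under 0.05 together with a fold change of more than 2. Counts of genes with an unadjusted p under 0.05 use a looser mark. Its share over all genes was not computed, so such counts are not to be set against the shares called. The share of all genes whose groups do not overlap was not computed either. Lack of overlap only describes the libraries.

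The 5 Obox genes followed lie in a cluster on chromosome 7, and 2 of them cannot be fully separated by sequence. On GRCm38 with GENCODE vM21, Obox1 spans chr7:15388948-15556866, Obox2 chr7:15388721-15398545 and Obox5 chr7:15750131-15759800 on the plus strand, while Obox3 (chr7:15479825-15639902) and Obox6 (chr7:15833241-15839678) are on the minus strand. The span of Obox1 covers 9598 bases of Obox2 on its own strand and 77042 bases of Obox3 on the other, and the library kit does not keep the strand. Of the 1732 distinct stretches of 150 bases (the length of a read) in Obox1 transcripts, 591 (34.1%) also occur in Obox2 transcripts, and these are 38.2% of the 1547 in Obox2. No other pair among the 7 Obox genes examined (these 5, Obox7 and Obox8) shares such a stretch. The values of Obox1 and Obox2 are therefore not independent and those of the lower one, Obox1, are uncertain, while Obox5 shares no such stretch with the other 6. Obox4, its pseudogenes and the rest of the genome were not searched. The other genes are Pou5f1 (chr17:35506018-35510772, plus strand), Klf4 (chr4:55527143-55532466, minus), Klf17 (chr4:117757836-117765648, minus), Klf5 (chr14:99298691-99315036, plus) and Nobox (chr6:43303674-43309554, minus).

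RefSeq promoter sequences (GRCm38.p6, 250 bases before to 50 after the start) were found for 8 of the 10 genes, with none for Obox6 and Klf5. Those of Obox1 (chr7:15547007-15547306, plus strand), Obox5 (chr7:15750120-15750419, plus) and Obox3 (chr7:15639728-15640027, minus) are shown because Obox1 and Obox5 were detected in every oocyte library, at 0.350 FPKM or more, while Obox3 stayed at or just above the floor there (at most 0.0146 FPKM). Capitals mark CAAGTG, the reverse complement of CACTTG, and the TATA-like motif TATATAA.
Obox1: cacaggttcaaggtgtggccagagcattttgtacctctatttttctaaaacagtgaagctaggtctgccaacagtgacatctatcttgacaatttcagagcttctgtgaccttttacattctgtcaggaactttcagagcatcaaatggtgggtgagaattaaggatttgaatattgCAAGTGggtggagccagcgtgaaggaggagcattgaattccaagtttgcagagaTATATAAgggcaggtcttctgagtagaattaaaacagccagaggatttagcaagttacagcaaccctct
Obox5: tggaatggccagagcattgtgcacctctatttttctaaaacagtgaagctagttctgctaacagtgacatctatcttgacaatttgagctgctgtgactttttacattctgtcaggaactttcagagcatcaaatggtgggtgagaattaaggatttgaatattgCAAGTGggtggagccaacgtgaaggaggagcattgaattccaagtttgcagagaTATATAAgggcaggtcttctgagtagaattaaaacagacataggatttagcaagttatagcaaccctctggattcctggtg
Obox3: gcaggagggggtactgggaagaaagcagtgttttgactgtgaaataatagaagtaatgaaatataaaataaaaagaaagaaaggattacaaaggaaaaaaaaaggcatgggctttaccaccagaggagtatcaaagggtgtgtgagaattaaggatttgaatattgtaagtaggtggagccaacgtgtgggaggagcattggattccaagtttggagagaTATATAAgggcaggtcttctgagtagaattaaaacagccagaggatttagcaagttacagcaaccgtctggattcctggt

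The Obox1 and Obox5 promoters were identical in 275 of 312 alignment columns (88.1%), and Obox3 matched Obox1 in 210 of 319 (65.8%). Unpaired ends count as columns, so these shares depend on where each annotated start lies and do not rank the promoters by likeness. The window of Obox2, whose mRNA was also found in every oocyte library, had 203 bases identical to that of Obox1 in 397 columns (51.1%). Both windows are placed differently on a shared sequence, with the CACTTG match at 24 from the start in Obox2 and at -73 in Obox1. Where they overlap they are the same sequence, and the other columns are unpaired ends. CACTTG, searched on both strands and one form of the E-box CANNTG, was in the windows of Obox1, Obox2, Obox5 and Obox7 and not in that of Obox3, and 13.6% of all 32851 promoter windows of the same length hold it. CANNTG itself is in 72.3% of them. TATATAA, on either strand, was in the windows of Obox1, Obox3, Obox5 and Obox7, against 3.24% of all windows. The Obox2 window ends before the place where TATATAA follows CACTTG in Obox1, so that place was not searched for Obox2. The motifs were chosen after the sequences and levels had been seen, and a match is a description of the sequence only.

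The ends of the Obox mRNAs also differ. The hexamer TTTTAT is a common form of the cytoplasmic polyadenylation element, which together with the polyadenylation signal AATAAA or ATTAAA lets stored mRNAs gain a longer poly(A) tail in the oocyte. In the last 100 bases of the longest protein-coding transcript, read on the sense strand, these stretches (in capitals, TTTTAT and ATTAAA) lie after the stop codon of Obox1 (chr7:15556811-15556839), Obox2 (chr7:15398490-15398518) and the related gene Obox7 (chr7:14665943-14665971), all on the plus strand of GRCm38. A shorter stretch with both hexamers lies after the stop codon of Obox8 (chr7:14331456-14331469, minus strand), a gene of the family at the floor in polysomes before the two-cell stage.
Obox1: TTTTATtgttagagtatatgttcATTAAA
Obox2: TTTTATtgttagagtatatgttcATTAAA
Obox7: TTTTATtgttagagaatatgttcATTAAA
Obox8: TTTTATtaATTAAA

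Obox3, Obox5, Obox6, Pou5f1, Klf5, Klf17 and Nobox have no TTTTAT in that window, and Klf4 has it. Among the tested genes with such a transcript, 14.4% of 6327 have the hexamer there, and 12.3% have it with a polyadenylation signal. Within that window of the transcript examined, it thus stands in Obox1 and Obox2 and not in Obox5, whose level outside polysomes in GV oocytes is given next with theirs. The rest of the Obox5 mRNA was not searched.

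In GV oocytes the mRNAs of Obox1, Obox2 and Obox5 were all lower in polysomes than outside them. Obox5 had 6.99, 6.97 and 4.20 FPKM in the polysome libraries A, B and C and 254, 252 and 104 FPKM in the non-polysome libraries. Obox2 had 11.7, 11.0 and 13.9 FPKM in polysomes and 263, 409 and 113 FPKM outside them. The groups were far apart for both genes, with every non-polysome library above every polysome library. Obox1 was lower in both fractions, with 0.434, 0.675 and 0.350 FPKM in polysomes and 16.0, 14.5 and 5.64 FPKM outside, and again without overlap. On the log2 scale the polysome level was below the non-polysome level by 5.0 for Obox5 (SE 1.01, 95% interval of the difference -7.07 to -2.92, limma adjusted p = 0.00326), which is 31.9-fold. For Obox2 the difference was -4.24 (SE 0.57, limma adjusted p = 3.22e-05) and for Obox1 -4.54 (SE 0.73, limma adjusted p = 0.000296). Over all genes the median difference was 0.56, and 2.35% of the 7967 genes were called lower in polysomes, against 3 of the 6 tested genes followed here. These 3 calls held in each of the 6 fits without 1 GV library.

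From GV to MII the polysome levels of Obox1 and Obox2 rose, while the change of Obox5, of like size, was not called. Obox5 had 66.6, 57.2 and 40.4 FPKM in MII polysomes, Obox2 111, 78.1 and 38.9 FPKM and Obox1 5.87, 4.41 and 1.98 FPKM. All 3 MII libraries lay above all 3 GV libraries for each of these genes. The log2 change was 2.99 (SE 0.73, limma adjusted p = 0.0105) for Obox1 and 2.52 (SE 0.57, limma adjusted p = 0.00533) for Obox2, increases of 7.94-fold and 5.73-fold. For Obox5 it was 3.18 (SE 1.01, limma adjusted p = 0.0601), with a 95% interval of 1.11 to 5.26, larger than the other two but with a wider error, and it was not called. Of all genes tested, 3.36% were called higher in this comparison and the median change was 0.18. Each call rested on few libraries: that of Obox1 was lost without MII polysome library A (adjusted p = 0.0722) or B (0.0541) and under centring of each library on its median (change 2.75, limma adjusted p = 0.0522), and that of Obox2 without MII polysome library A (0.0504). In the fit without the two-cell M libraries all 3 genes were called (limma adjusted p = 0.000584 for Obox1, 0.000427 for Obox2 and 4.91e-06 for Obox5).

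Outside polysomes the same 3 mRNAs were not called between GV and MII. The non-polysome MII libraries held 132, 75.0 and 73.5 FPKM of Obox5, 154, 91.5 and 92.6 FPKM of Obox2 and 10.1, 4.91 and 5.39 FPKM of Obox1, and the log2 changes from GV were -1.07, -1.07 and -0.76 (limma adjusted p = 0.524, 0.220 and 0.529). The polysome change minus the non-polysome change was 4.25 for Obox5, 3.59 for Obox2 and 3.75 for Obox1, and none of these differences was called (limma adjusted p = 0.324, 0.0612 and 0.185). Of the 6 tested genes 4 had an unadjusted p under 0.05 for this difference, a looser mark whose share over all genes was not computed. Calls were made for 0.163% of all genes. With the gradient as a block the difference was called for Obox5 (limma adjusted p = 0.0140) and Obox2 (0.0447), and without the two-cell M libraries for all 3 Obox genes (limma adjusted p = 0.000192, 0.00246 and 0.0111). Leaving out those libraries also raised the share of all genes called, from 0.628% to 2.71% over the 3 such differences. The log2 ratio of the polysome to the non-polysome level within a gradient, which was -5.0 ± 0.31 for Obox5 in GV oocytes (mean ± SD, n = 3), was -0.75 ± 0.32 in MII oocytes. At the MII stage no tested gene of the 10 was called between fractions by limma (1 with an unadjusted p under 0.05), as 0.753% of all genes were.

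**Figure D1:**
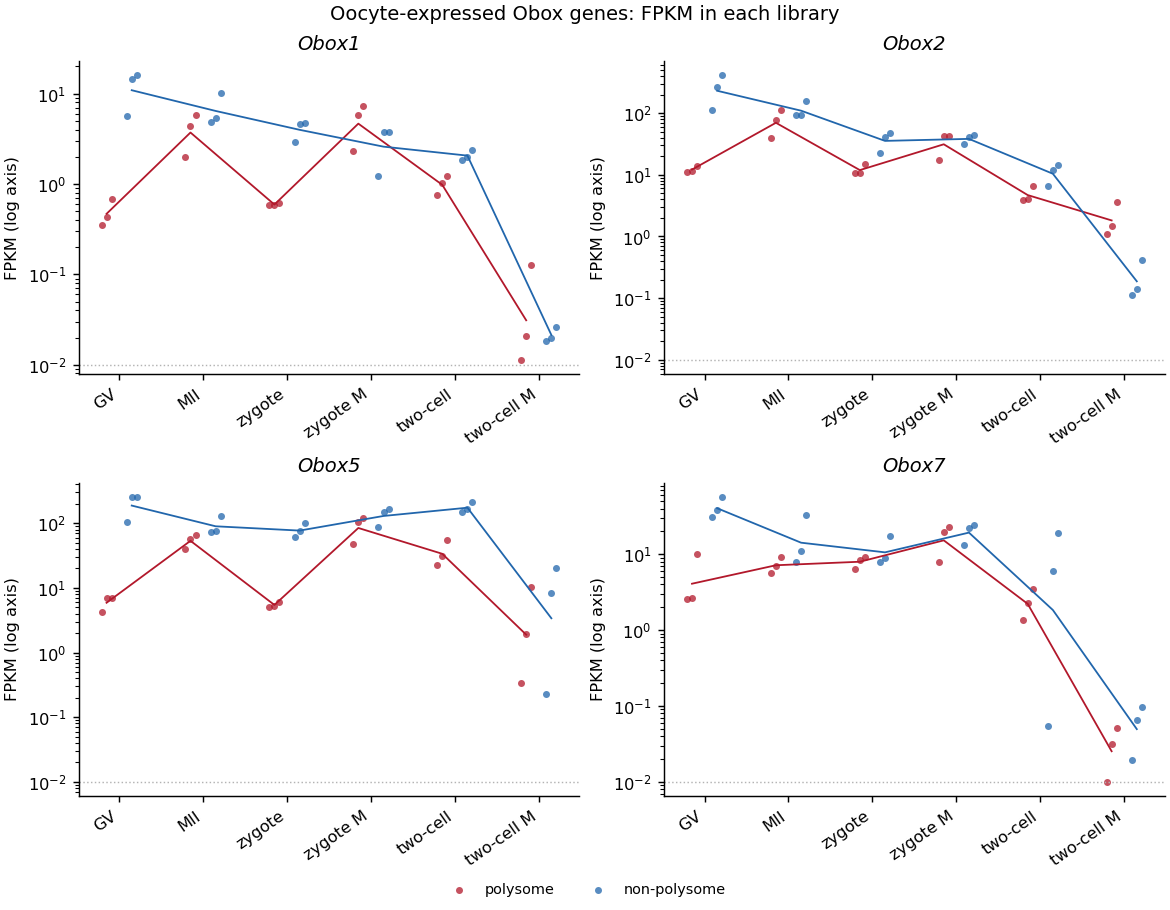
Level of Obox1, Obox2, Obox5 and Obox7 in FPKM on a log axis at the 6 stages, in polysome (red) and non-polysome (blue) libraries, each point being 1 library, the lines joining geometric means of 3 and the dotted line marking 0.01 FPKM. For Obox1, Obox2 and Obox5 the polysome points lie far under the non-polysome points in GV oocytes, and for Obox5 also in zygotes. The GV polysome points of Obox5 lie at 4.20 to 6.99 FPKM and its MII polysome points at 40.4 to 66.6 FPKM.

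In zygotes the polysome levels lay under those outside, as in GV oocytes. The polysome libraries B, C and D had 6.05, 5.31 and 5.05 FPKM of Obox5 and the non-polysome libraries 75.9, 99.5 and 60.9 FPKM. Obox2 had 14.8, 10.7 and 10.7 FPKM in polysomes and 47.8, 40.7 and 22.9 FPKM outside, and Obox1 0.613, 0.584 and 0.581 FPKM and 4.61, 4.72 and 2.90 FPKM. For each gene every non-polysome library exceeded every polysome library. The log2 difference between fractions was -3.82 (SE 1.01, limma adjusted p = 0.0541) for Obox5, -2.75 (SE 0.73, limma adjusted p = 0.0577) for Obox1 and -1.57 (SE 0.57, limma adjusted p = 0.276) for Obox2, and these were not called, as 1.38% of all genes were. The looser mark of an unadjusted p under 0.05 was met by 4 of the 6 tested genes, with no share over all genes computed for it. With the gradient as a block, which pairs the fractions of a lysate, the difference of Obox5 was called (limma adjusted p = 0.000191). Without the two-cell M libraries those of Obox5 (2.34e-06) and Obox1 (0.00369) were called, in limma adjusted p. The difference in polysomes between GV oocytes and zygotes was not called for any of the 6 genes, with 95% intervals of GV minus zygote of -1.85 to 1.16 for Obox1, -1.14 to 1.20 for Obox2 and -1.96 to 2.19 for Obox5, and 0 of the 6 had an unadjusted p under 0.05 in limma, while 5.61% of all genes were called.

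In zygotes held in M-phase the polysome levels of Obox1 and Obox5 were higher than in zygotes. Obox5 had 122, 47.4 and 105 FPKM in zygote M polysomes, where library B was lowest, and Obox1 had 5.87, 2.33 and 7.38 FPKM. Each of these 6 values lay above all zygote values of its gene. The groups did not overlap for any of the 6 tested genes in this comparison, in which 2 were called. The log2 change was 3.96 (SE 1.01, limma adjusted p = 0.0147) for Obox5, 15.5-fold, and 2.97 (SE 0.73, limma adjusted p = 0.0106) for Obox1, 7.86-fold. Obox2, with 41.9, 17.1 and 42.4 FPKM, also lay above its zygote libraries, and its change of 1.39 (SE 0.57, limma adjusted p = 0.189) was not called. The median change over all genes was −0.43, and 5.75% were called, 3.24% as higher. The call for Obox5 was lost without zygote polysome library C (adjusted p = 0.0574) or D (0.0538) or zygote M polysome library A (0.0717) or C (0.0570), and that for Obox1 without zygote M polysome library A (0.0574) or C (0.0697), in limma adjusted p. Without the two-cell M libraries the adjusted p was 1.65e-07 for Obox5, 0.000623 for Obox1 and 0.0524 for Obox2.

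The level outside polysomes in zygote M was 152, 86.6 and 167 FPKM for Obox5, 40.3, 31.6 and 43.7 FPKM for Obox2 and 3.74, 1.23 and 3.77 FPKM for Obox1. None of the 6 tested genes was called between zygote and zygote M in that fraction by limma (1, Klf17, with an unadjusted p under 0.05), against 10.4% of all genes. The difference between the polysome and the non-polysome change was 3.59 (SE 1.04, limma adjusted p = 0.152) for Obox1 and 3.20 (SE 1.43, limma adjusted p = 0.557) for Obox5, neither called, with 0.289% of all genes called, and both called without the two-cell M libraries (limma adjusted p = 0.0268 and 0.00528). Within gradients the log2 ratio of Obox5 was -3.82 ± 0.35 in zygotes and -0.62 ± 0.28 in zygote M (mean ± SD, n = 3). For Obox1 it was 0.85 ± 0.17 in zygote M, with polysomes the higher fraction in 3 of 3 gradients. The polysome levels in the M-phases of MII and zygote M were not called different for any of the 6 genes (0 with an unadjusted p under 0.05 in limma, 12.4% of all genes called), with a 95% interval for MII minus zygote M of -2.74 to 1.42 for Obox5.

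**Figure D2:**
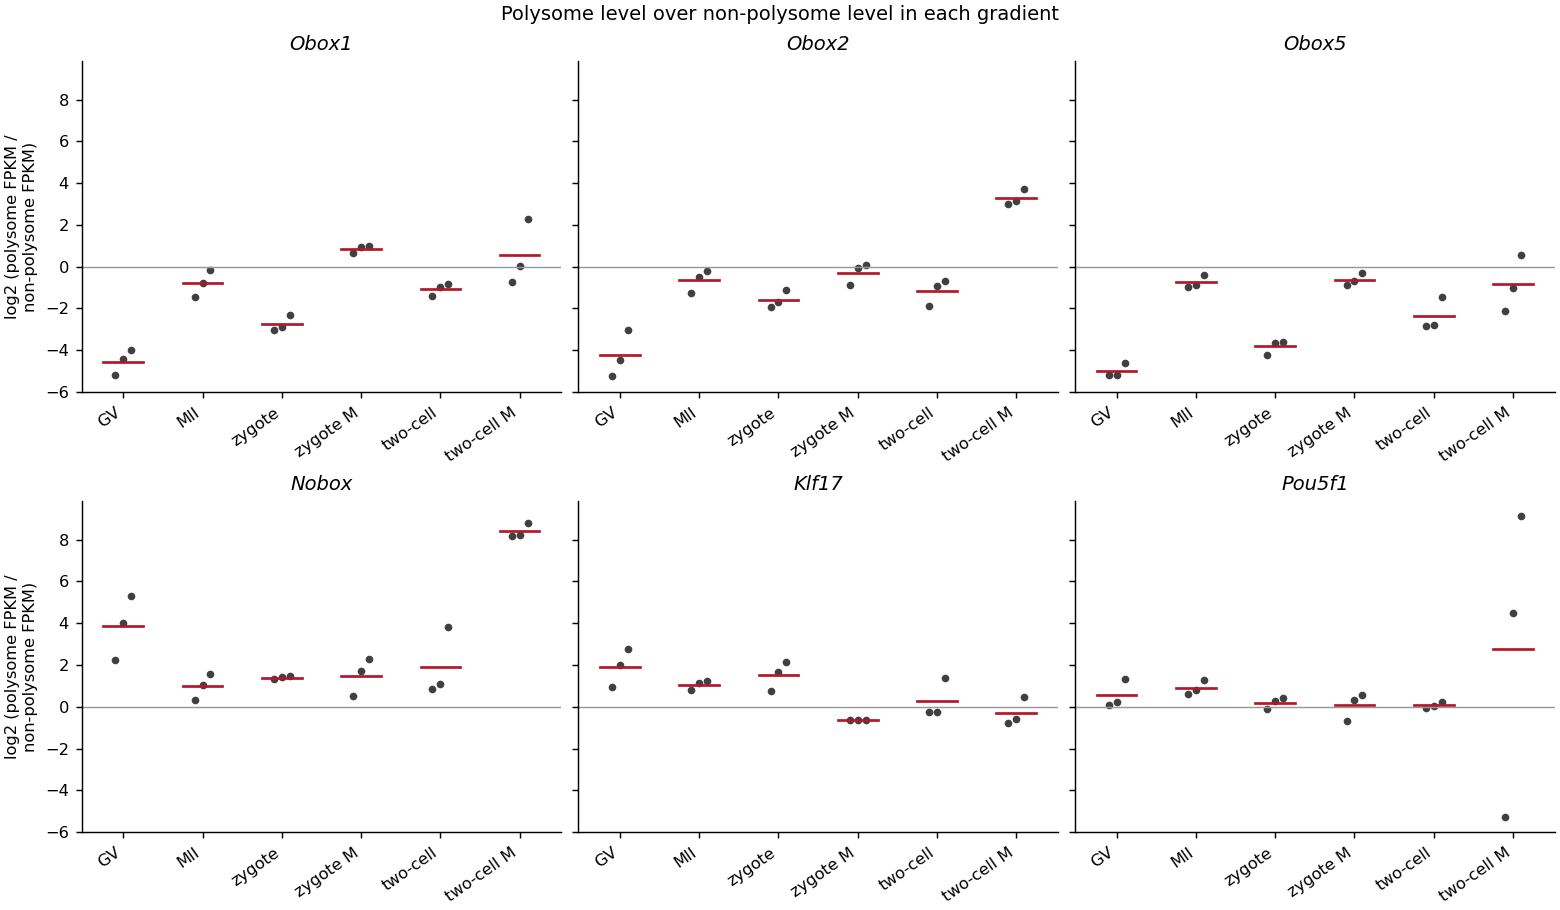
Log2 ratio of polysome to non-polysome FPKM within each gradient for the 6 tested genes at the 6 stages, each point being 1 gradient and each red line the mean of 3. Obox5 moves from −5.0 in GV oocytes to −0.75 in MII oocytes, to −3.82 in zygotes and to −0.62 in zygote M embryos, and Nobox is above 0 at every stage.

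At the two-cell stage Obox5 had the highest level of the 3 genes, with 54.6, 31.1 and 22.7 FPKM in polysomes and 151, 216 and 164 FPKM outside. Obox2 had 3.88, 4.11 and 6.48 FPKM and 14.2, 6.51 and 12.1 FPKM, and Obox1 1.03, 0.747 and 1.23 FPKM and 1.82, 2.00 and 2.40 FPKM. From zygote to two-cell, the polysome level of Obox5 changed by 2.63 (SE 1.01, limma adjusted p = 0.0771) and that of Obox2 by -1.34 (SE 0.57, limma adjusted p = 0.112), changes of opposite sign that were not called, beside a median of −0.98 over all genes and 16.0% called. Outside polysomes Obox2 fell, with a change of -1.77 (SE 0.57, limma adjusted p = 0.0179), while Obox5 differed by 1.18 (SE 1.01, limma adjusted p = 0.383), with 27.6% of all genes called lower and a median of −1.61. The fall of Obox2 lay close to that median, and it was not called under centring on library medians (-0.64, limma adjusted p = 0.491) or without zygote non-polysome library B (0.0742) or C (0.0607) or two-cell non-polysome library B (0.0892). Without the two-cell M libraries Obox5 was called higher in two-cell embryos than in zygotes in polysomes (limma adjusted p = 4.26e-05) and outside them (0.0225), and Obox2 was called lower in polysomes (0.0344). The polysome change of Obox5 was called in 6 of 10 alternative settings, among them median centring.

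In two-cell embryos held in M-phase, the polysome levels of Obox1 and Obox5 fell. The two-cell M polysome libraries had 0.129, 0.0113 and 0.0205 FPKM of Obox1 and 1.94, 0.340 and 10.2 FPKM of Obox5, with the latter spread widely between libraries. The log2 change from two-cell was -4.98 (SE 0.73, limma adjusted p = 7.59e-06) for Obox1 and -4.16 (SE 1.01, limma adjusted p = 0.00208) for Obox5. Obox2, with 3.67, 1.11 and 1.48 FPKM, changed by -1.36 (SE 0.57, limma adjusted p = 0.0629) and was not called. Outside polysomes the 3 genes fell, with 0.422, 0.140 and 0.112 FPKM of Obox2, 8.36, 0.229 and 20.4 FPKM of Obox5 and 0.0264, 0.0185 and 0.0199 FPKM of Obox1, changes of -5.79, -5.68 and -6.59 (limma adjusted p = 4.66e-09, 5.94e-05 and 4.18e-08). These falls stand in a stage comparison where much of the transcriptome moved: 28.1% of all genes were called lower in polysomes, 36.3% in either direction, with a median change of −1.17, and 28.0% outside them, with a median of −1.14. With each library centred on its median, Obox5 changed by -2.74 in polysomes and -2.03 outside and was called in neither (limma adjusted p = 0.0521 and 0.125), as in fits of only the libraries compared (0.0636 and 0.120), and with 1 added to each FPKM the polysome change of Obox1 was -0.92 (limma adjusted p = 0.0623). Outside polysomes the falls of Obox1 and Obox2 kept their calls but were smaller with 1 added (-1.59 and -3.23) and with centring (-2.94 and -2.14), and the two-cell M values of Obox1 lie near the floor. The summed oocyte markers were lower in the two-cell M libraries too, as given with the libraries, and their part in these falls was not tested.

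**Figure D3:**
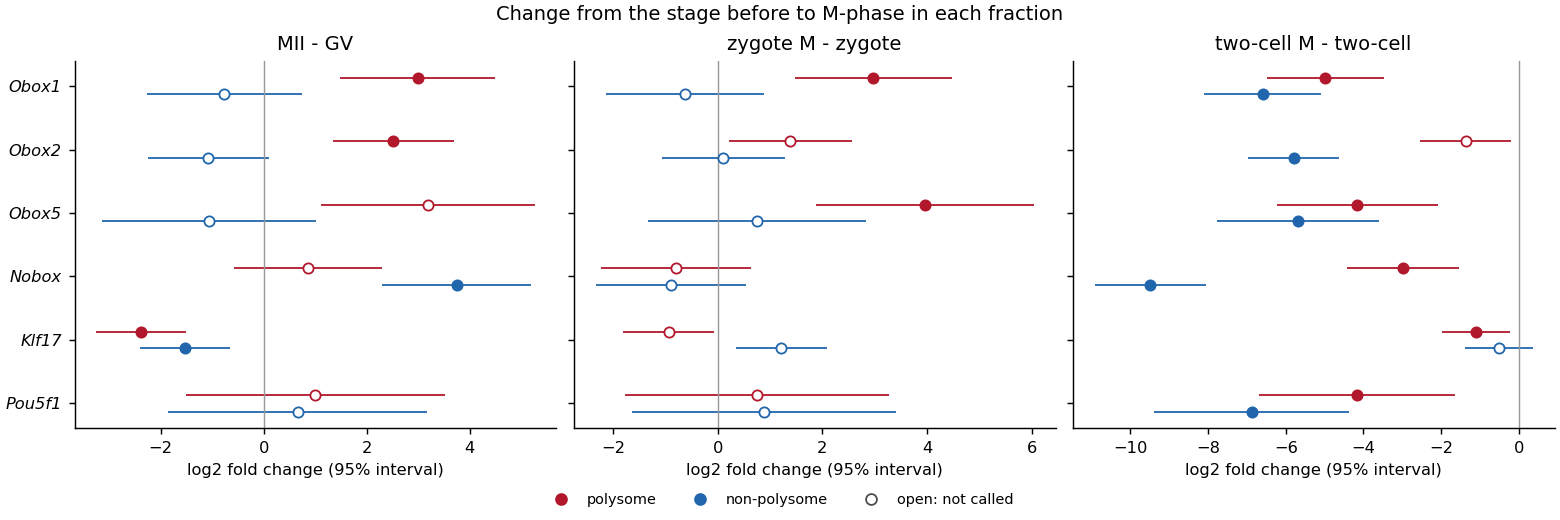
Log2 change in polysomes (red) and outside them (blue) with its 95% interval for the 6 tested genes in MII against GV, zygote M against zygote and two-cell M against two-cell, with filled points for changes that were called. In polysomes Obox1 and Obox5 are above 0 in the first and second comparison (2.99 and 3.18, 2.97 and 3.96) and under it in the last (−4.98 and −4.16).

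Obox7, another gene of the cluster (chr7:14659496-14665996) that carries the TTTTAT and ATTAAA stretch, was given beside them from a list of related genes. It had 2.68, 2.54 and 10.1 FPKM in GV polysomes and 38.1, 56.6 and 30.8 FPKM outside them, and 9.22, 7.03 and 5.68 FPKM in MII polysomes. Library C of the GV polysomes thus lay above every MII library, and the change of 0.81 (SE 1.21, limma adjusted p = 0.808) was not called. The sum of Obox1, Obox2, Obox5 and Obox7, which depends less on how reads were split between Obox1 and Obox2 than each gene does, was 23.8 ± 4.08 FPKM in GV polysomes (mean ± SD, n = 3), 142 ± 53.0 in MII, 26.2 ± 4.08 in zygotes, 147 ± 63.1 in zygote M, 44.3 ± 14.5 in two-cell embryos and, at the last stage, 6.34 ± 5.16 in two-cell M. Outside polysomes it was 519 ± 243, 230.5 ± 85.9, 131 ± 34.2, 197 ± 56.2, 198 ± 39.2 and 9.97 ± 10.1 FPKM in that order. MII and zygote M had the highest polysome sums, and GV oocytes the highest sum outside polysomes.

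The level of Nobox mRNA lay higher in polysomes than outside them in each gradient, and the difference was called in GV oocytes and two-cell M embryos. GV libraries had 84.5, 62.6 and 75.5 FPKM in GV polysomes and 5.27, 1.57 and 15.7 FPKM outside them, with every polysome library the higher. The log2 difference was 3.86 (SE 0.70, limma adjusted p = 0.00127), 14.5-fold, with 2.61% of all genes called higher in GV polysomes. It held in 6 of 6 fits without 1 GV library but not in a fit of the GV libraries alone (limma adjusted p = 0.0501). The polysome level was 168, 80.0 and 176 FPKM in MII oocytes and 179.9, 164 and 184 FPKM in zygotes, and the change from GV to MII of 0.86 (SE 0.70, limma adjusted p = 0.586) was not called. Outside polysomes it rose, to 82.6, 63.4 and 60.0 FPKM in MII oocytes, a log2 change of 3.75 (SE 0.70, limma adjusted p = 0.000459) without overlap, in a comparison with 13.5% of all genes called higher. At every stage the polysome level was the higher in 3 of 3 gradients, with a log2 ratio of 3.86 ± 1.53 in GV oocytes and 1.40 ± 0.07 in zygotes (mean ± SD, n = 3).

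The level of Nobox was lowest in two-cell M embryos. Zygote M polysomes had 89.7, 104 and 111 FPKM, two-cell polysomes 56.1, 48.3 and 51.4 FPKM and two-cell M polysomes 7.03, 3.03 and 13.4 FPKM. The polysome level fell between the last pair, with a change of -2.98 (SE 0.70, limma adjusted p = 0.00158), and this was not called with each library centred on its median (-1.56, limma adjusted p = 0.0703). Outside polysomes the two-cell libraries had 31.0, 3.46 and 24.4 FPKM and the two-cell M libraries 0.0239, 0.01 and 0.0298 FPKM, at or near the floor, a change of -9.48 (SE 0.70, limma adjusted p = 1.56e-11). Its size rests on those values: it was -3.91 with 1 added to each FPKM (limma adjusted p = 3.90e-06) and -5.83 under median centring (5.45e-08). The two-cell non-polysome level was lower than that of zygotes (67.5, 59.8 and 73.6 FPKM), with a difference of -2.27 (SE 0.70, limma adjusted p = 0.0136), a call that was lost without two-cell non-polysome library B (-1.28, limma adjusted p = 0.159), under median centring (-1.15, 0.212) and in a fit of those libraries alone (0.112). In two-cell M embryos Nobox was higher in polysomes by 8.42 (SE 0.70, limma adjusted p = 8.19e-10), and Obox2 by 3.28 (SE 0.57, limma adjusted p = 0.000180), with 9.70% of all genes called higher. Both sizes depend on the processing: with 1 added to each FPKM the difference was 2.92 for Nobox (limma adjusted p = 0.000568) and 1.25 for Obox2 (0.0539), with libraries centred on their medians that of Obox2 was 0.78 (0.366), and in a fit of the two-cell M libraries alone neither was called (0.0846 and 0.237).

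Klf17 had the highest FPKM of the 10 genes in GV polysomes and fell there between GV and MII, where Obox1 and Obox2 rose. It had 518, 266 and 969 FPKM in GV polysomes, highest in library C, and 130.3, 136 and 141 FPKM outside them. The log2 difference between fractions was 1.91 (SE 0.42, limma adjusted p = 0.00776), and it was lost without GV polysome library C (1.45, limma adjusted p = 0.0660), under median centring (1.63, 0.0581) and in a fit of the GV libraries alone (0.0774). In MII polysomes Klf17 had 115, 104 and 79.3 FPKM, all under the GV libraries, a change of -2.38 (SE 0.42, limma adjusted p = 0.000412) or 5.21-fold lower, where 2.75% of all genes were called lower. This held in 6 of 6 fits without 1 of the libraries compared. It fell outside polysomes too, to 64.8, 47.9 and 33.5 FPKM, with a change of -1.53 (SE 0.42, limma adjusted p = 0.0128) and 3.14% of all genes called lower, and that call was lost without MII non-polysome library C (-1.28, limma adjusted p = 0.0788) and with robust moderation and no trend (0.0535). The change in polysomes minus that outside was -0.85 (SE 0.60, limma adjusted p = 0.854).

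In zygotes every polysome library of Klf17 again lay above every non-polysome library, with 361, 279 and 295 FPKM in polysomes and 82.1, 167 and 93.0 FPKM outside. The difference of 1.51 (SE 0.42, limma adjusted p = 0.0773) was not called, and it was without the two-cell M libraries (limma adjusted p = 0.0241). Zygote M libraries had 162, 123 and 212 FPKM in polysomes and 254, 194 and 326 FPKM outside. The groups overlapped, but the non-polysome level was the higher one in each of the 3 zygote M gradients, with a log2 ratio of -0.64 ± 0.02 against 1.51 ± 0.71 in zygotes (mean ± SD, n = 3). The non-polysome change from zygote of 1.22 (SE 0.42, limma adjusted p = 0.0654) was not called, but it was under median centring (1.92, limma adjusted p = 0.0174) and without the two-cell M libraries (0.0360). No tested gene of the 10 was called between fractions in zygote M (1 with an unadjusted p under 0.05 in limma, 1.92% of all genes called). The difference between the changes in the 2 fractions was -2.15 (SE 0.60, limma adjusted p = 0.128) and was not called. Two-cell polysomes had 151, 53.0 and 72.1 FPKM, lower than in zygotes, with a change of -1.89 (SE 0.42, limma adjusted p = 0.00241) and 9.82% of all genes called lower, which was not called under median centring (-1.27, limma adjusted p = 0.0981), and GV polysomes exceeded two-cell polysomes by 2.62 (SE 0.42, limma adjusted p = 7.08e-05), with 12.3% called higher.

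Klf17 was well above the floor in two-cell M embryos in both fractions. It had 43.0, 37.1 and 36.3 FPKM in polysomes and 74.3, 26.8 and 54.5 FPKM outside. The polysome change from two-cell was -1.11 (SE 0.42, limma adjusted p = 0.0418), close to the median of all genes. It was lost without 5 of the 6 libraries compared, each alone: two-cell polysome library A (-0.68, limma adjusted p = 0.268) or C (0.0565), or two-cell M polysome library A (0.0639), B (0.0907) or C (0.0849). With libraries centred on their medians it was 0.31 in polysomes (limma adjusted p = 0.671) and 3.14 outside (8.73e-06), so no direction is given for Klf17 between these stages. The MII polysome level of all 6 tested genes was called above that of two-cell M, as for 45.2% of all genes, from 1.34 for Klf17 (limma adjusted p = 0.00950) to 6.90 for Obox1 (1.63e-08), beside a median of 2.64 over all genes. Obox1 was near the floor in two-cell M polysomes (0.129, 0.0113 and 0.0205 FPKM), and its difference was 2.19 with 1 added to each FPKM (limma adjusted p = 1.82e-05) and 4.71 under median centring (5.86e-05). The value for Klf17 lies under that median and was -0.85 when libraries were centred on it (limma adjusted p = 0.182) and 0.76 after quantile normalization (0.224). Under the centring Obox5 (2.63, 0.0574) and Pou5f1 (2.58, 0.0724) were not called either.

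**Figure D4:**
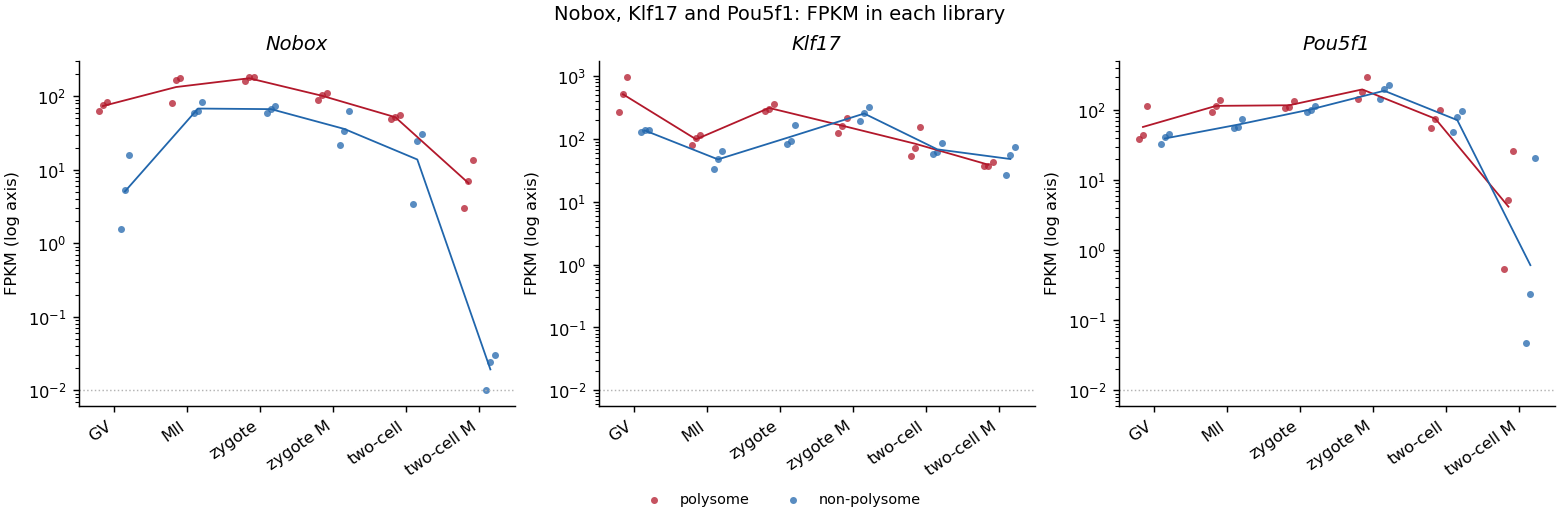
Level of Nobox, Klf17 and Pou5f1 in FPKM on a log axis at the 6 stages, in polysome and non-polysome libraries, each point being 1 library, the lines joining geometric means of 3 and the dotted line marking 0.01 FPKM. Klf17 is highest in GV polysomes (266 to 969 FPKM), and Nobox lies at or near 0.01 FPKM in the two-cell M non-polysome libraries while its polysome libraries hold 3.03 to 13.4 FPKM.

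Pou5f1, which is maternal in the oocyte and later marks pluripotent cells, was present in both fractions up to the two-cell stage, with no called difference between them. GV libraries had 38.5, 43.8 and 114 FPKM in polysomes and 33.0, 41.1 and 45.3 FPKM outside, with library C of the polysomes above the rest. MII polysomes had 115, 95.2 and 141 FPKM, zygote polysomes 136, 112 and 107 FPKM and zygote M polysomes 144, 179.5 and 301 FPKM. No polysome comparison among GV, MII, zygote and zygote M was called for Pou5f1, and the 95% interval of the change from GV to MII was -1.52 to 3.52 around 1.0. Its difference between fractions was not called at any of the 6 stages, with values from 0.06 in zygote M and 0.19 in zygotes to 0.89 in MII oocytes and 2.78 in two-cell M embryos (limma adjusted p = 0.131).

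Two-cell embryos had 75.8, 101 and 56.6 FPKM of Pou5f1 in polysomes and 79.7, 97.3 and 48.6 FPKM outside. Two-cell M libraries had 5.30, 0.535 and 26.1 FPKM in polysomes and 0.234, 21.0 and 0.0468 FPKM outside, in the order A, B and C. Library B thus was the lowest in polysomes and the highest outside, and the log2 ratio within gradients ran from −5.30 to 9.12. The change from two-cell in polysomes was -4.17 (SE 1.23, limma adjusted p = 0.00920) and that outside -6.88 (SE 1.23, limma adjusted p = 6.01e-05), both called lower. The polysome call was lost without two-cell M polysome library B (-2.68, limma adjusted p = 0.104) and under median centring (-2.75, 0.0602), which left -3.23 outside (0.0205), and in fits of only the libraries compared neither was called (0.0807 and 0.154). Without two-cell M non-polysome library B, Pou5f1 was called higher in two-cell M polysomes than outside, by 5.33 (limma adjusted p = 7.29e-05), and likewise without two-cell M polysome library B, by 4.26 (0.0196).

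The other 4 genes were under the minimum for testing and are described by their levels. Obox6 was nearest to it, with a geometric mean of 0.0952 FPKM against the 0.1 needed. In oocytes, zygotes and zygote M embryos its highest value was 0.0791 FPKM in polysomes (zygote library B) and 0.0536 FPKM outside. Two-cell libraries had 1.51, 4.72 and 5.12 FPKM in polysomes and 6.18, 3.22 and 11.8 FPKM outside. Two-cell M libraries had 6.30, 8.64 and 14.4 FPKM in polysomes and 19.0, 0.01 and 52.5 FPKM outside, where library B was at the floor and the others were the highest of all. Every two-cell and two-cell M polysome library thus lay above every earlier one. In a fit of all 23125 genes, an alternative that tests the gene, the log2 difference between two-cell and zygote was 6.63 (SE 1.68, limma adjusted p = 0.0104) in polysomes and 8.46 (SE 1.68, limma adjusted p = 0.000802) outside, and such values depend on the floor.

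Obox8, another gene of the family on the minus strand at chr7:14331436-14333557, also appeared at the two-cell stage. It was at the floor of 0.01 FPKM in all 12 polysome libraries of oocytes, zygotes and zygote M embryos. Two-cell polysomes had 4.13, 6.60 and 13.7 FPKM and two-cell M polysomes 31.9, 13.1 and 29.3 FPKM, with 59.0, 93.3 and 60.3 FPKM and 98.8, 61.3 and 69.1 FPKM outside. In two-cell embryos its polysome level was lower than its non-polysome level, with a difference of -3.27 (SE 0.82, limma adjusted p = 0.00696) and 6.38% of all genes called lower. Among the 6 tested genes of the 10 followed, Obox5 and Nobox were furthest apart between fractions at this stage, with -2.37 (SE 1.01, limma adjusted p = 0.111) and 1.91 (SE 0.70, limma adjusted p = 0.0617). Neither was called, while 16.1% of all genes were. The looser mark of an unadjusted p under 0.05 was met by 2 of the 6 tested. Obox5 and Nobox were both called with the gradient as a block (limma adjusted p = 0.00323 and 0.0440) and once the two-cell M libraries were left out (limma adjusted p = 0.000180 and 0.0325).

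Obox3, Klf5 and Klf4 were lower still. Obox3 was at most 0.0146 FPKM in every library up to zygote M and had 0.254, 0.0178 and 0.198 FPKM in two-cell polysomes and 0.152, 0.0191 and 0.611 FPKM outside, so library B stayed near the floor in both fractions. Klf5 was at most 0.0505 FPKM in the earlier polysome libraries. In two-cell embryos it had 0.709, 0.0246 and 0.01 FPKM in polysomes and 1.71, 1.37 and 0.0571 FPKM outside. The two-cell M libraries had 0.570, 0.855 and 0.104 FPKM and 0.0401, 0.464 and 5.46 FPKM, with large differences between libraries of a group. Klf4 was found at low levels at every stage, with 0.217, 0.306 and 0.0555 FPKM in GV polysomes and 0.01, 0.705 and 0.223 FPKM in zygote M polysomes. Its highest value, 30.3 FPKM, was in 1 of the 3 two-cell M non-polysome libraries, the others having 1.10 and 0.120 FPKM. In the fit of all genes Obox3 was called higher in two-cell than in zygote libraries in both fractions, by 3.20 (SE 0.85, limma adjusted p = 0.0145) in polysomes, and Klf5 outside polysomes, by 5.57 (SE 1.39, limma adjusted p = 0.00562). Of the 36 libraries, 10 are at the floor for Obox3, 20 for Klf5 and 15 for Klf4, and at an unknown depth an absent mRNA cannot be told from a rare one.

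**Figure D5:**
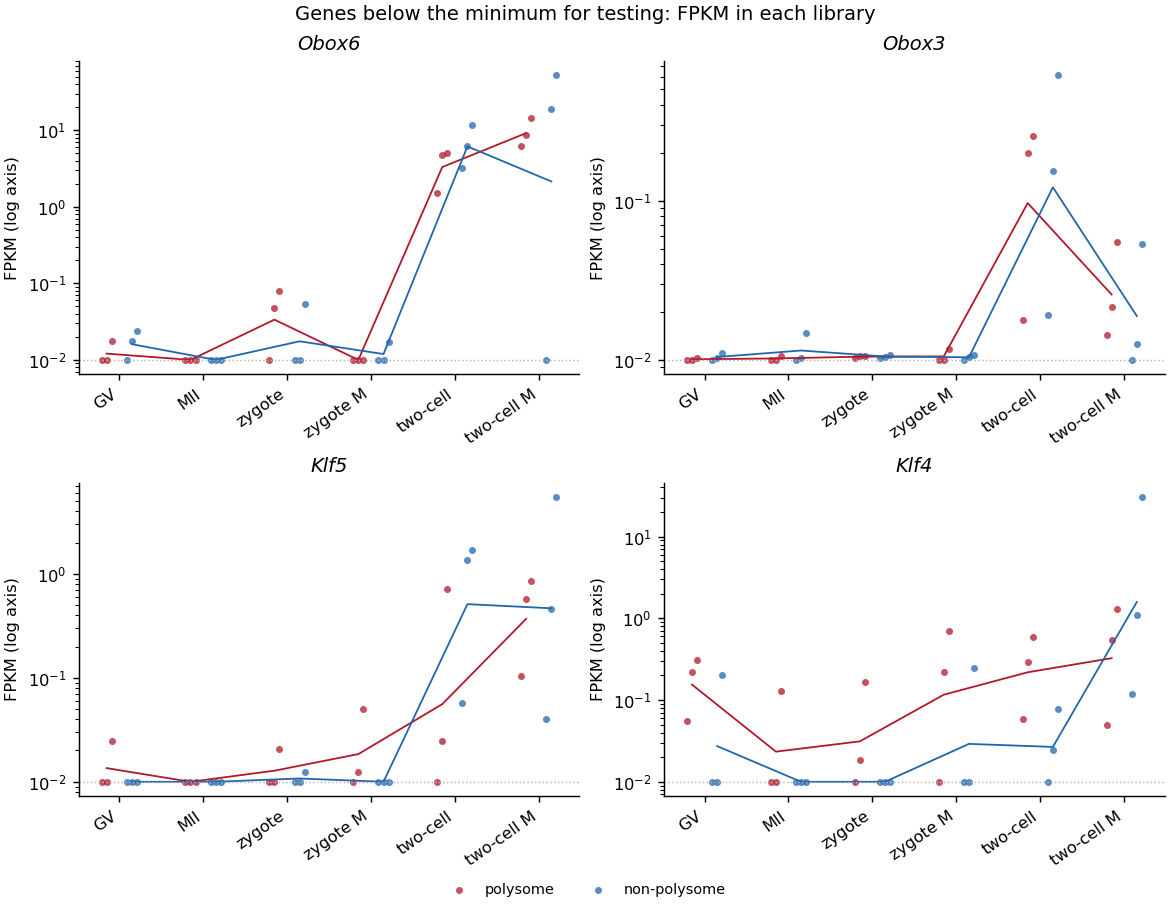
Level of Obox6, Obox3, Klf5 and Klf4, the genes under the minimum for testing, in FPKM on a log axis at the 6 stages, in polysome and non-polysome libraries, each point being 1 library, the lines joining geometric means of 3 and the dotted line marking 0.01 FPKM. Obox6 lies near 0.01 FPKM up to zygote M and at 1.51 to 14.4 FPKM in two-cell and two-cell M polysomes, while Klf4 is scattered at every stage.

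All 6 tested genes differed between stages in both fractions by the moderated F-test of limma, as did 62.9% of all genes in polysomes and 78.3% outside. In polysomes that of Nobox was lost without the two-cell M libraries (limma adjusted p = 0.161), where 41.3% of all genes still differed, and that of Pou5f1 without two-cell M polysome library B (0.0897) and under median centring (0.0696). Outside polysomes that of Obox5 was lost under median centring (limma adjusted p = 0.220). Other genes of the same families and stages were taken from 4 lists. Between GV and MII polysomes, where 3 of the 6 tested genes followed here were called, none of Obox7, 6 other Klf and Sp factors, 12 other embryo and pluripotency factors and 7 other oocyte factors tested was called, with 6.11% of all genes called in either direction. Obox8 is not counted there, being at the floor in all GV and MII polysome libraries. Between zygote and zygote M polysomes, Dppa4 (-4.89, limma adjusted p = 0.0440), a gene of pluripotent cells, and 1 of the 7 oocyte factors were called, both lower, as 2.51% of all genes were. Between two-cell and two-cell M polysomes 5 of the 7 oocyte factors and 5 of the 6 genes followed here were called lower, against 28.1% of all genes, and of those 5 followed only Obox1 was still called with libraries centred on their medians. The call of Obox1, near the floor in two-cell M polysomes, was lost with 1 added to each FPKM. Of the 2 other Obox genes tested, 1 was called lower there, namely Obox7. No Klf or Sp factor of the list was called there, and of the embryo factors Nfya, a subunit of the CCAAT-binding factor NF-Y, was lower (-5.40, limma adjusted p = 0.000353) and Sox15, an HMG-box factor, higher (4.30, 0.0109). The oocyte factors Figla and Lhx8, needed for the formation of follicles, and Gtf2a1l and Tbpl2, germ-cell forms of general transcription factors, were higher in MII than in two-cell M polysomes by 6.64, 6.52, 7.30 and 5.08 (limma adjusted p = 0.000270, 0.000233, 2.88e-09 and 0.00234). In that comparison 45.2% of all genes were called higher, with a median of 2.64. The geometric means of these oocyte factors were low, from 0.159 FPKM for Figla to 0.371 FPKM for Lhx8.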

How the data were processed

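The authors sequenced RNA of the pooled gradient fractions of mouse oocytes and embryos after SMART-seq v4 amplification, a kit that does not mark the strand, as 150-base paired-end reads. Per the submitters' processing notes and the methods of the study, the authors trimmed reads with Trim Galore 0.4.1, mapped them to GRCm38 with STAR 2.5.3a and quantified genes in Partek, and the deposited values are FPKM for 23125 genes in 36 libraries, with an offset that makes 0.01 the smallest value. RefSeq is named in the methods but the gene columns have the Ensembl form, so the annotation behind the FPKM is uncertain. FPKM fixes the scale of each library, gives no depth, and lets no counting error be stated. For 2 of the 38 samples, both zygote replicate A, no column was assigned and they were not analysed here.

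Log2 of FPKM, with nothing added, was fitted as 12 group means over all 36 libraries with limma 3.58.1 (R 4.3.3), using a trend in the empirical Bayes step. The minimum for testing was a geometric mean of 0.1 FPKM, which 7967 genes reached, p-values were two-sided and adjusted by Benjamini-Hochberg over all of them, and a call needed an adjusted p under 0.05 and a log2 fold change beyond 1. The polysome and non-polysome libraries of a stage and letter were taken as the fractions of 1 gradient, so comparisons of fractions are also given with the gradient as a block where that changed a call. The residuals of the fractions of a gradient had a median correlation of 0.083, over 0.1 in 6 of 18 gradients. The Partek GSA test of the study was not run. The script was tested on simulated data. Sequences came from RefSeq tables (GRCm38.p6) and from GENCODE vM21 on GRCm38, read with Biopython 1.88 in Python 3.11.15 (numpy 2.4.6, pandas 2.3.3, matplotlib 3.10.9).

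All 10 genes are named, with up to 4 genes per list by the largest called change in polysomes without overlap, and the 2 genes most alike each tested one over the 12 group means. The genes and lists were chosen with earlier results of these data known. Obox7 and the sequence motifs were taken up after their values were seen. The alternatives were an added 0.1 or 1 FPKM, a minimum of 1 FPKM or none, quantile normalization, centring on library medians, robust moderation without a trend, only the libraries compared, a block for the letter or for the gradient, each library left out in turn and, added after seeing the data, all two-cell M libraries left out.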

Additional observations from a re-analysis of the deposited data

Results flagged for a closer look

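In the step from two-cell to two-cell M embryos, the change in polysomes differed from that outside them for Obox2 and Nobox. The polysome change minus the non-polysome change was 4.43 for Obox2 on the log2 scale (SE 0.81, limma adjusted p = 0.000764) and 6.51 for Nobox (SE 0.99, limma adjusted p = 7.35e-05). A test of the difference between the fractions' changes brought them here, which 5.75% of all genes also passed. Outside polysomes the two-cell M libraries A, B and C had 0.422, 0.140 and 0.112 FPKM of Obox2 and 0.0239, 0.01 and 0.0298 FPKM of Nobox, the latter near the smallest value of 0.01, while polysomes had 3.67, 1.11 and 1.48 and 7.03, 3.03 and 13.4 FPKM. In the other fits run the difference ranged from 2.19 to 4.43 for Obox2 and from 1.14 to 6.51 for Nobox. Obox2 was not called after quantile normalization (limma adjusted p = 0.0719), median centring (0.0917) or in a fit of only the libraries compared (0.158), and Nobox not with 1 added to each FPKM (0.484) or after quantile normalization (0.0538). Both were called in each of the 12 fits that left out 1 of the libraries compared. Two-cell M libraries were also low in summed oocyte markers (5.71 to 93.2 FPKM outside polysomes), whose part in these differences was not tested.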

How the results depend on the processing

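Over the 6 tested genes there were 6 stage effects in polysomes, 6 outside them, 18 calls in the 8 polysome comparisons of stages, 9 in the 4 non-polysome comparisons, 7 between fractions and 2 for the difference between fractions. With no minimum, 10 stage effects and 14 calls between stages were made outside polysomes, since all 10 genes were then tested. Median centring gave 10 calls between polysome stages, among them a gained call of Obox5 in two-cell embryos against zygotes. Under it Klf17 changed sign in two-cell M against two-cell (0.31 in polysomes, 3.14 outside) and in MII against two-cell M (-0.85). Adding 1 to each FPKM gave 11 calls between fractions. The difference between fractions had 4 calls with 0.1 or 1 added, 1 after quantile normalization and 7 in fits of only the libraries compared. Leaving out 1 library gave 5 to 6 stage effects in polysomes, 6 outside, 16 to 22 and 7 to 10 calls between stages, 7 to 13 between fractions (13 without two-cell M non-polysome library B) and 2 to 4 for the difference. Replicate letters did not pair libraries of different stages, whose residuals had a mean r of 0.0205 in polysomes and 0.0176 outside. With the letter as a block, 11 calls were made between fractions. With the gradient as a block there were 10 between fractions and 4 for the difference, and beyond the calls given beside the results it changed no other. Without the two-cell M libraries, 7 calls in 6 polysome comparisons became 13, 4 in 3 non-polysome comparisons 6, 5 in 5 comparisons of fractions 10 and 0 in 3 differences 5, and the stage effects in polysomes numbered 5. Calls over all genes rose in the same comparisons, from 10.4% to 18% of genes times comparisons, 20.4% to 28.4%, 5.02% to 9.69% and 0.628% to 2.71%, and nothing particular to the genes followed is read from the gain. Depth is unknown, and the size of the two-cell M differences of Nobox depends on non-polysome levels near 0.01 FPKM.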

Other observations

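The genes whose pattern over the 12 group means of log2 FPKM was most alike each tested gene are given as a description, since the points share libraries. For Obox5 they were Ccndbp1 (Pearson r = 0.970) and Mad2l1 (0.963), a gene of the spindle checkpoint. For Obox2 they were Taf13 (0.962), a subunit of the general factor TFIID, and Gm4353 (0.958), and for Obox1 D6Ertd527e (0.973) and Tgds (0.969). For Nobox they were Dnajb1 (0.989), a heat shock co-chaperone, and Kif17 (0.982), a kinesin motor. For Pou5f1 they were Klhdc3 (0.987) and Lhpp (0.982). Klf17 had less close neighbours, Csrnp2 (0.898) and the ubiquitin ligase gene Ube3b (0.895). Obox1 and Obox2 had an r of 0.930 with each other, with shared sequence between them, and Obox5 and Klf17 an r of 0.037.

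Of the lists of other factors, Klf10 was higher in MII than in two-cell M polysomes by 5.03 (SE 1.53, limma adjusted p = 0.00747) and Stat3 by 4.92 (SE 1.17, limma adjusted p = 0.000974), both above the median of 2.64 over all genes. Klf16 was lower in GV than in two-cell polysomes by -2.22 (SE 0.69, limma adjusted p = 0.0251), beside a median of 0.85.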
